A study of Homo sapiens with 10 samples.

Results

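The Polycomb repressive complex 1 (PRC1) genes CBX2, CBX6, CBX7, CBX8, PCGF1, PCGF2, BMI1, RING1 and RNF2 were followed from human embryonic stem cells (ESCs) to ESC-derived neuroectodermal cells (NECs). They were chosen by name, and each of the 9 names matched 1 row among the 31017 genes of the RNA-seq count table. The ESCs were of the H9 line (WA09), kept in Pluripro media and matrix, and the NECs were made from that same line and harvested on day 7 of differentiation, so both cell types stem from 1 line. Each cell type had 2 biological replicates of mRNA-seq and 2 of promoter capture Hi-C (PCHi-C), a form of Hi-C in which RNA baits pull down the ligated pairs that include a promoter. For PCHi-C, the promoter of a gene was taken as the baited HindIII fragment that holds the gene start of the count table. The 9 genes lay on 9 of the 21833 baits in the lists.

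PRC1 is a histone-modifying complex that ubiquitylates histone H2A and compacts chromatin over silenced developmental genes. Every PRC1 holds a RING ligase, RING1 or RNF2, bound to a PCGF protein. Canonical PRC1 adds a chromobox (CBX) protein, which reads the methyl mark left by PRC2, and a polyhomeotic protein, while variant PRC1 holds RYBP or YAF2 in place of the CBX subunit. In pluripotent cells the complex holds lineage genes silent, and subunit exchange during differentiation is well known.

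The RNA-seq libraries held between 19234087 and 25356382 counts, and the 4 replicate interaction lists held between 81168 and 100305 calls. The sequencing lane was shared by the ESC libraries and differed from that of the NEC libraries, and lane and cell type cannot be told apart. The labels were checked with marker genes. All 5 pluripotency markers fell and all 6 neuroectoderm markers rose in NECs, and the 6 mesendoderm markers fell. The replicates were not alike in every marker. The summed level of the pluripotency markers was 4066 and 4176 CPM (the counts of a gene scaled to the TMM-adjusted size of its library) in the ESC libraries and 895 and 1268 CPM in the NEC libraries. The 5 neural crest markers, of which 2 rose, summed to 20.3 and 20.8 CPM in ESCs, to 59.6 CPM in NEC replicate 1 and to 22.1 CPM in NEC replicate 2. The mesendoderm markers summed to 32.5 and 87.2 CPM in ESCs and to 3.60 and 2.72 CPM in NECs. No marker was at 0 other than TFAP2A in ESC replicate 2. The part of such cells in the values below was not tested, and in bulk libraries a smaller share of cells that express a gene and less RNA per cell cannot be told apart.

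HindIII cuts at AAGCTT, and these sites set which piece of each locus PCHi-C could report on. All 9 baits ended at such a site on both sides and held none inside. The windows that follow are GRCh37, + strand, with the site in capitals, and they are shown because each one divides a PRC1 promoter region from its neighbour fragment.
BMI1 bait, right end, chr10:22605836-22605895, within an exon of COMMD3: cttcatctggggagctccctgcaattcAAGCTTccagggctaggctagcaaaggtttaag
CBX8 bait, left end, chr17:77773689-77773748, intronic in CBX8: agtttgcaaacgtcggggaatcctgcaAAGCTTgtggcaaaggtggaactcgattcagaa
CBX6 bait, right end, chr22:39269125-39269184, intergenic: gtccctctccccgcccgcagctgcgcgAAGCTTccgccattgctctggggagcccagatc
CBX7 bait, left end, chr22:39539321-39539380, intronic in CBX7: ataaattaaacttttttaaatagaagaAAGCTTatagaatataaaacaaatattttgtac

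The first pair of sites matters for how the BMI1 and CBX8 contacts are read. The BMI1 gene record begins at 22605381 on chromosome 10, on a 1853 bp bait that also holds the start of COMMD3. Its canonical transcript starts at 22610028, on the next fragment (chr10:22605864-22612344), which was no bait in the lists. CBX8 is transcribed from the - strand. Its gene record begins at 77775482 on chromosome 17, inside the bait chr17:77773717-77781746, whereas its canonical transcript starts at 77770876 on the unbaited fragment chr17:77767798-77772910. Contacts given for BMI1 and CBX8 are those of the bait at the gene start. For the other 7 genes the canonical start lay on the bait. The PCGF1 bait also holds the start of LBX2, and the PCGF2 bait that of AC006449.1. Contacts of a bait that holds more than 1 gene start cannot be assigned to 1 of its genes.

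The RefSeq promoter table (GRCh38.p14) had entries for 7 of the 9 genes, CBX2 and CBX8 being the ones without. The promoters of 3 genes are shown 5' to 3' with their CG pairs in capitals: those of the RING ligases, whose expression moved in opposite directions, and that of BMI1, which lay outside its bait. Each sequence matched 1 place on its chromosome in GRCh37, and those positions are given.
RING1, + strand, chr6:33176027-33176276, inside its bait: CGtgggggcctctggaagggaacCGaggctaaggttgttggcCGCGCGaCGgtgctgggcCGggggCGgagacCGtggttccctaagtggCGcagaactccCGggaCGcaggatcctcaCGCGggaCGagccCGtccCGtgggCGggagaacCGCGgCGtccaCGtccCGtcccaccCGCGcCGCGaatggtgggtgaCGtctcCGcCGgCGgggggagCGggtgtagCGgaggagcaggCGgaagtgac
RNF2, + strand, chr1:185014440-185014657, inside its bait, printed up to the first annotated transcript: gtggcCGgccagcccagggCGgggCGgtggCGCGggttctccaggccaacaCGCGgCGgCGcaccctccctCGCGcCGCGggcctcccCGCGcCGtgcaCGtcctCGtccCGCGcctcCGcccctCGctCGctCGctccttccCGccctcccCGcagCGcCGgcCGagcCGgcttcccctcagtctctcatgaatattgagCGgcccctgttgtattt
BMI1, + strand, chr10:22609778-22610027, outside its bait: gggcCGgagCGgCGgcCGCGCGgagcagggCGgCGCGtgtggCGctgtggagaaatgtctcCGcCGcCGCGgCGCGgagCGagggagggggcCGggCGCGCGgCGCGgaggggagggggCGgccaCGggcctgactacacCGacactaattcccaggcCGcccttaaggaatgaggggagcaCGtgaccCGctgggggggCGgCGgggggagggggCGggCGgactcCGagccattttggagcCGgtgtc

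In the 250 bases before the RefSeq start, RING1 and RNF2 each held 34 CG pairs, a number that 6.84% of the 35116 promoters in the table reached. BMI1 held 35 before the first of its 2 listed starts, and 5.80% of promoters had at least as many. Before the second it held 54, which 0.0399% of promoters reached. CBX6, with 45, and CBX7, with 41, were among the 0.589% and 1.73% of promoters with at least as many. PCGF1 held 12, close to the median of 11. PCGF2 held 1, but its listed start lay within the gene, at the start of a shorter transcript. CG is its own reverse complement, so a count on one strand covers both.

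Expression was compared between the cell types with edgeR's quasi-likelihood test on the deposited counts, with p-values adjusted over all 17564 genes tested. All 9 PRC1 genes passed the filter on low counts, and their positions are given on GRCh37. In NECs, 6 rose at an adjusted p under 0.05 (CBX2, CBX7, CBX8, PCGF2, BMI1 and RING1), 1 fell (RNF2), and CBX6 and PCGF1 did not pass. Over all genes tested, 31.5% rose and 29.7% fell by the same rule, 61.1% in all. Both NEC libraries lay above both ESC libraries for 42.8% of genes tested and below both for 41.0%. Groups that do not overlap, as given below for single genes, were thus common. The median log2 fold change of the 9 PRC1 genes was 0.84, against 0.01 over all genes tested. With the further requirement of an absolute log2 fold change above 1.5, only CBX8 was called, where 11.4% of all genes were called higher and 9.68% lower, 21.0% in all.

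**Figure D1:**
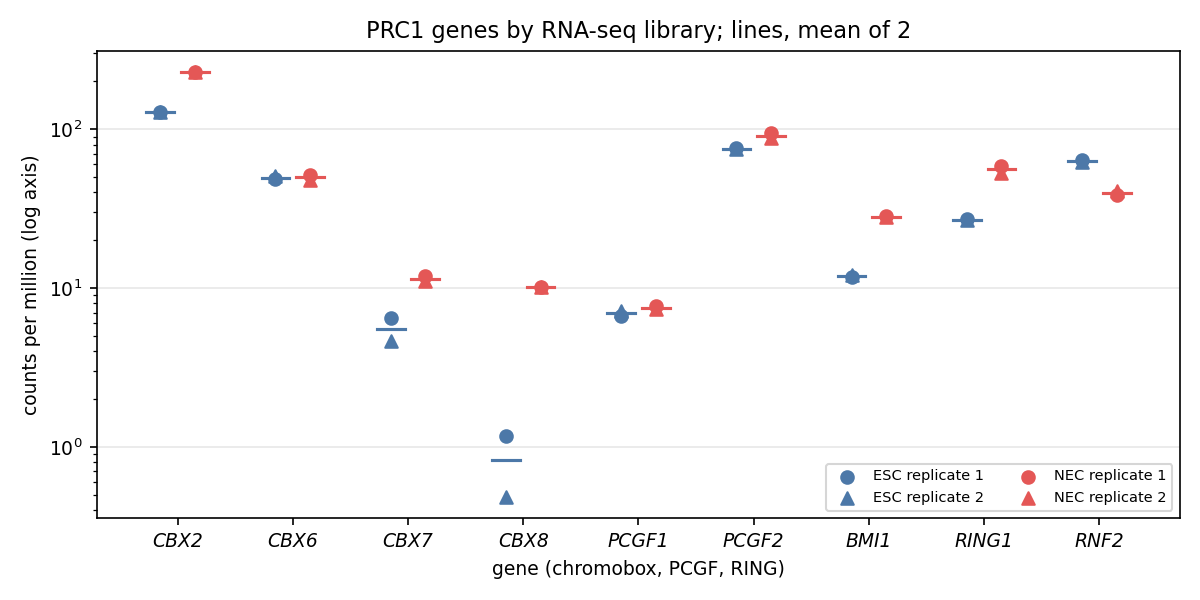
Expression of the 9 PRC1 genes in the 4 RNA-seq libraries, in CPM on a log axis; each point is 1 library (blue, ESC; red, NEC; circles, replicate 1; triangles, replicate 2) and each line the mean of 2. CBX8 runs from 1.17 and 0.485 CPM in ESCs to 10.2 CPM in both NEC libraries, and RNF2 is the one gene whose NEC points lie below its ESC points by more than the replicates differ.

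Among the chromobox genes of the set, whose products bring canonical PRC1 to its histone mark, CBX8 changed most. CBX8 (ENSG00000141570, chr17:77765931-77775482) had 22 and 12 counts in the ESC libraries and 218 and 251 in the NEC libraries, or 1.17 and 0.485 CPM against 10.2 and 10.2 CPM. The NEC libraries were close to each other and far above both ESC libraries. The log2 fold change was 3.67 (SE 0.37, adjusted p = 0.000362 by edgeR), a 12.7-fold rise. The few ESC counts limit how exactly that fold is known, and it lay between 3.12 and 4.35 on the log2 scale when other settings were used or a library was left out.

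CBX2 (ENSG00000173894, chr17:77751977-77761449), best known for its strong compaction of chromatin, lies next to CBX8. It had 129 and 128 CPM in ESCs and 229 and 229 CPM in NECs. The groups did not overlap and the replicates were almost equal. CBX2 rose 1.78-fold (log2 change 0.84, SE 0.08, adjusted p = 0.000333 by edgeR).

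CBX7 (ENSG00000100307, chr22:39516172-39548679), a chromobox protein tied to self-renewal in stem cells, was low in both cell types. Its level was 6.46 and 4.61 CPM in the ESC libraries and 11.9 and 11.1 CPM in the NEC libraries. The lower NEC library was above the higher ESC library, and CBX7 rose 2.08-fold (log2 change 1.06, SE 0.21, adjusted p = 0.00567 by edgeR). A second annotated gene, RP4-742C19.8, overlaps 4486 bp of CBX7 on the same strand and had between 7 and 19 counts in each library.

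CBX6 (ENSG00000183741, chr22:39257455-39268319), a less studied chromobox gene on the same chromosome as CBX7, was the flattest of the set. It had 48.6 and 50.4 CPM in ESCs and 51.6 and 48.0 CPM in NECs. The libraries of the cell types overlapped, and the log2 fold change of 0.0077 (SE 0.09, adjusted p = 0.948 by edgeR) took either sign under other settings, between -0.04 and 0.07.

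The PCGF proteins define which kind of PRC1 is formed. PCGF2 (MEL18) and BMI1 (PCGF4) sit in canonical PRC1, and PCGF1 in a variant complex with KDM2B and BCOR. BMI1 (ENSG00000168283, chr10:22605381-22620413) had 11.8 and 12.1 CPM in ESCs and 28.2 and 28.1 CPM in NECs. Replicates of a cell type differed little beside the distance between the cell types. BMI1 rose 2.36-fold (log2 change 1.24, SE 0.12, adjusted p = 0.000285 by edgeR). COMMD3 overlaps 3855 bp of the BMI1 record on the same strand, and its counts went from 50 and 56 in ESCs to 303 and 270 in NECs, against 222, 299, 603 and 693 for BMI1. How far reads of COMMD3 entered the BMI1 count was not tested.

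PCGF2 (ENSG00000056661, chr17:36890150-36904558) was the more abundant of that pair per length in every library, as given further on. It measured 75.8 and 75.3 CPM in ESCs and 94.3 and 87.7 CPM in NECs, which did not overlap. Its rise was small, 1.20-fold (log2 change 0.27, SE 0.09, adjusted p = 0.0338 by edgeR), and it was the weakest call of the set. The adjusted p was 0.10 by DESeq2, 0.178 without either ESC replicate and 0.0983 without NEC replicate 1. CISD3 overlaps 1709 bp of PCGF2 on the other strand, and because reads were counted without regard to strand, reads of the overlap cannot be told apart.

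PCGF1 (ENSG00000115289, chr2:74732170-74735707) had 6.68 and 7.16 CPM in ESCs and 7.67 and 7.38 CPM in NECs. Both NEC libraries were slightly above both ESC libraries, an order found for 42.8% of all genes tested. The difference did not pass (log2 change 0.12, SE 0.18, adjusted p = 0.583 by edgeR).

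The RING ligases, the catalytic subunits that place ubiquitin on H2A, moved apart. RING1 (ENSG00000204227, chr6:33176272-33180499) had 27.2 and 26.8 CPM in ESCs and 59.0 and 53.1 CPM in NECs. RNF2 (RING1B, ENSG00000121481, chr1:185014496-185071740) had 63.9 and 62.1 CPM in ESCs and 38.6 and 40.9 CPM in NECs. For neither gene did the libraries of the cell types overlap. RING1 rose 2.08-fold (log2 change 1.05, SE 0.10, adjusted p = 0.000301 by edgeR). RNF2 fell 1.59-fold (log2 change -0.66, SE 0.09, adjusted p = 0.00115 by edgeR). Both calls were kept under all 10 alternative settings.

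Levels were compared between genes per length, as CPM per kb of joined exons, within each cell type and without a test. In ESCs the order from high to low was CBX2 (22.7 ± 0.11, SD, n = 2), PCGF2 (21.5 ± 0.11), RNF2 (16.1 ± 0.33), RING1 (14.9 ± 0.16), CBX6 (6.20 ± 0.16), PCGF1 (3.97 ± 0.20), BMI1 (2.71 ± 0.05), CBX7 (0.742 ± 0.18) and CBX8 (0.200 ± 0.12). Each neighbouring pair in that order was further apart than its replicates. In NECs it was CBX2 (40.4 ± 0.03), RING1 (30.9 ± 2.27), PCGF2 (25.9 ± 1.33), RNF2 (10.2 ± 0.41), BMI1 (6.41 ± 0.02), CBX6 (6.23 ± 0.32), PCGF1 (4.32 ± 0.12), CBX8 (2.47 ± 0.005) and CBX7 (1.54 ± 0.08). RING1 was above PCGF2 in both libraries, but its lower value (29.3) was nearer to the higher value of PCGF2 (26.9) than to its own other replicate (32.5). BMI1 and CBX6 did not differ beyond their spread there, since CBX6 was higher in replicate 1 and lower in replicate 2. CBX8 stood above CBX7 per kb of joined exons, but below it when the longest transcript was taken as the length (2.72 against 2.79 CPM per kb). RING1 per length was 0.916 and 0.929 times RNF2 in the ESC libraries and 3.29 and 2.80 times RNF2 in the NEC libraries. PCGF2 per length was 8.07 and 7.79 times BMI1 in ESCs and 4.18 and 3.91 times BMI1 in NECs. The counted BMI1 record overlaps COMMD3 and begins upstream of every transcript used for the BMI1 length. What this does to the BMI1 level and rank was not tested. Shares were taken of the summed level per length of CBX2, CBX6, CBX7 and CBX8 alone. CBX2 made up 75.9% and 76.2% in ESCs and 79.4% and 80.2% in NECs. The share of CBX6 was 20.3% and 21.3% in ESCs and 12.7% and 11.9% in NECs. CBX8 went from 0.943% and 0.397% to 4.85% and 4.90%.

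**Figure D2:**
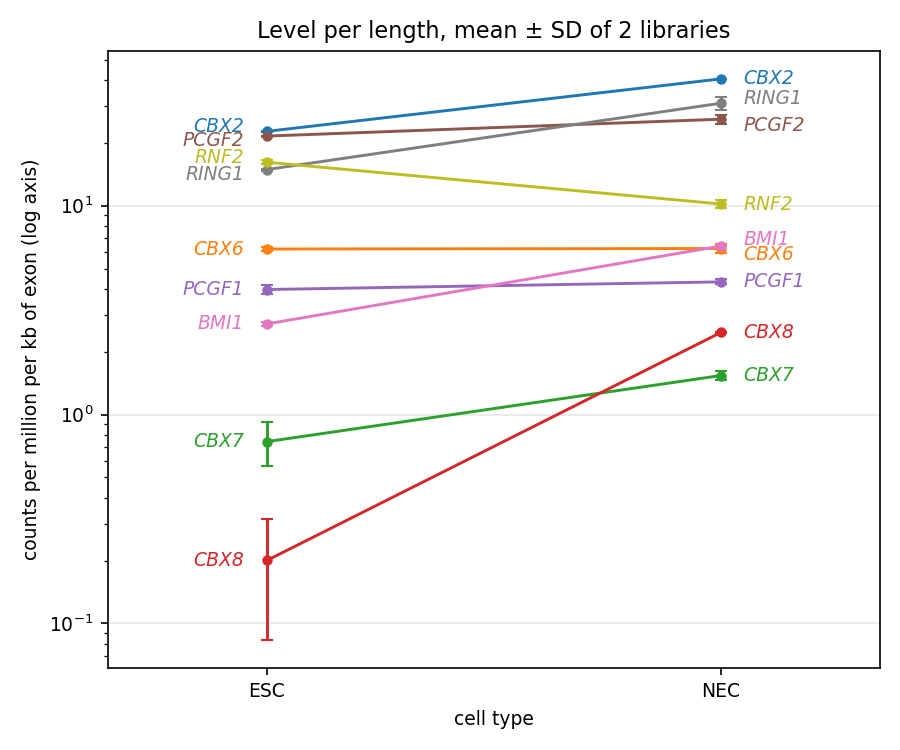
Level of each PRC1 gene in ESCs and NECs, in CPM per kb of joined exons on a log axis; points are means and bars SD of 2 libraries. RING1 and RNF2 start close together at 14.9 and 16.1 and end at 30.9 and 10.2, and CBX8 climbs from the lowest place.

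The remaining PRC1 subunits came from a list of 19 genes, all of which passed the filter. Of these, 7 rose, 5 fell and 7 did not pass, with a median log2 fold change of 0.04, where 31.5% of all genes tested rose and 29.7% fell. Without ESC replicate 2, 4 of the 19 rose and 5 fell. Among the polyhomeotic proteins, which polymerise canonical PRC1, PHC1 and PHC2 moved in opposite directions. PHC1 had 770 and 764 CPM in ESCs and 192 and 184 CPM in NECs, a log2 change of -2.03 (SE 0.10, adjusted p = 3.22e-05 by edgeR). PHC2 had 25.3 and 16.6 CPM in ESCs and 208 and 176 CPM in NECs, a log2 change of 3.21 (SE 0.21, adjusted p = 8.04e-05 by edgeR). Neither overlapped between the cell types, and PHC3 did not pass (log2 change -0.09, SE 0.15, adjusted p = 0.603 by edgeR). SCMH1, a further canonical subunit, rose from 19.5 and 20.8 CPM to 49.2 and 39.2 CPM (log2 change 1.13, SE 0.14, adjusted p = 0.000739 by edgeR). In the variant complexes, BCORL1, a paralog of the PCGF1 partner BCOR, rose by 2.70 on the log2 scale (SE 0.17, adjusted p = 6.78e-05 by edgeR). BCOR itself fell (log2 change -0.61, SE 0.09, adjusted p = 0.0016 by edgeR). RYBP, which takes the place of the CBX subunit, fell by 0.96 (SE 0.12, adjusted p = 0.000775 by edgeR). YAF2, its alternative in that place, rose (log2 change 0.76, SE 0.24, adjusted p = 0.0288 by edgeR). USP7, a deubiquitinase found with variant PRC1, fell by 0.75 (SE 0.11, adjusted p = 0.00136 by edgeR).

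The enzymes that remove ubiquitin from H2A, and their partners, formed a list of 6 genes. Of these, 2 rose, 2 fell and 2 did not pass, near the 31.5% and 29.7% of all genes tested, with a median log2 fold change of 0.02. ASXL3, a partner of the deubiquitinase BAP1, had 17 and 11 counts in ESCs and 374 and 417 in NECs (log2 change 4.71, SE 0.30, adjusted p = 7.25e-05 by edgeR). ASXL1, its paralog, rose by 1.41 (SE 0.09, adjusted p = 7.28e-05 by edgeR). ASXL2 fell by 0.63 (SE 0.10, adjusted p = 0.00236 by edgeR) and the H2A deubiquitinase MYSM1 by 1.21 (SE 0.15, adjusted p = 0.000799 by edgeR), so the ASXL paralogs did not share a direction.

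**Figure D3:**
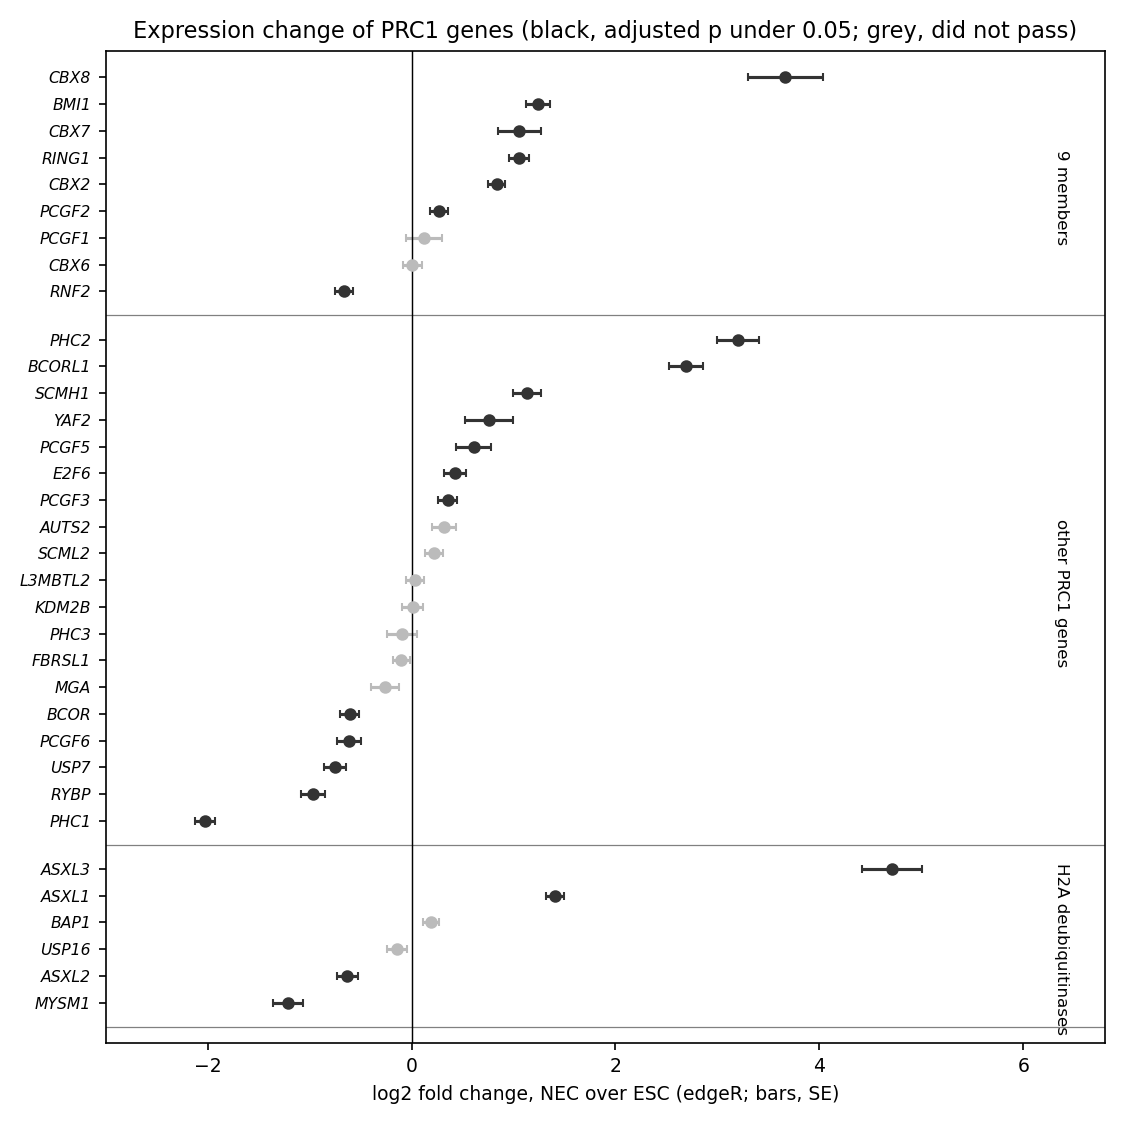
Log2 fold change from ESC to NEC for the 9 PRC1 genes, 19 other PRC1 genes and 6 H2A deubiquitinase genes, with bars for SE; black points passed an edgeR adjusted p under 0.05 and grey points did not. CBX8 at 3.67 leads the 9, RNF2 at -0.66 is the only one of them that fell, and PHC2 at 3.21 and PHC1 at -2.03 mark the ends of the other PRC1 genes.

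Genes whose pattern was most like that of the member with the largest rise and of the member that fell were found by Euclidean distance over the log2 CPM of the 4 libraries. For CBX8 these were SDSL (distance 0.279), GUCY1B3 (0.388) and CYP26B1 (0.404). For RNF2 they were ACAD8 (0.0631), RAB11FIP4 (0.0636) and MAPK9 (0.0898). SDSL had 1.11 and 0.688 CPM in ESCs and 10.6 and 10.3 CPM in NECs, and ACAD8 had 64.7 and 64.8 CPM in ESCs and 38.5 and 40.7 CPM in NECs.

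Promoter contacts were taken from the deposited lists of CHiCAGO calls, which score each pair of a bait and another fragment against a background model and are limited to scores of 12 or more. The fragment paired with the bait is a promoter-interacting region (PIR). There were lists for the 2 replicates of each cell type and for their merged data. The lists give no read numbers, so the depth behind a score is unknown, and the calls were compared between cell types without a test, since an exact permutation test of 2 replicates against 2 cannot reach a p under 0.05. The 9 baits had 133 PIRs in any list, all on the chromosome of their bait. Their distances to the bait ran from 7.0 to 2017.2 kb with a median of 236.2 kb, and 54 of the 133 were baits themselves. In the merged lists the ESC list held 54 PIRs and the NEC list 50, and 26 of them were the same fragment in both, against 11 in the lists of replicate 1 and 4 in those of replicate 2. This was 48.1% of the ESC and 52.0% of the NEC calls, against 44.2% and 44.3% over all baits.

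Few calls recurred in every replicate. None of the 133 was called in all 4, and over all calls in any list the share was 2.50%. Another 10 (7.52%) were called in both ESC replicates and neither NEC replicate, against 2.25% of all calls. Only 3 (2.26%) were called in both NEC replicates and neither ESC replicate, against 2.16%. Some of the 10 share a bait, 3 of them that of CBX8, and are not independent. A further 78 were called in 1 replicate only and 19 in none but a merged list.

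The number of PIRs per bait differed widely. PCGF1 had 8 PIRs in each ESC replicate, 4 in NEC replicate 1 and 6 in NEC replicate 2, with 12 and 8 in the merged lists. CBX7 had 4 and 4 against 2 and 2, and 9 and 7 in the merged lists. CBX6 had 6 and 8 against 5 and 3, with 5 and 3 in the merged lists. CBX8 had 5 and 6 against 4 and 0, but 8 in either merged list. These 4 baits had fewer PIRs in both NEC replicates than in both ESC replicates, as did 12.8% of all baits. BMI1 alone had more in both NEC replicates, 9 and 9 against 7 and 5, as did 13.1% of all baits. PCGF2 had 5 and 4 against 6 and 3. RING1 had 4 and 3 against 3 and 15, so NEC replicate 2 stood apart from the other 3. CBX2 and RNF2 had the fewest, 2, 0, 1 and 1 for CBX2 and 0, 1, 1 and 3 for RNF2, in the order of ESC and then NEC replicates. Over all baits, the median was 2 PIRs in either merged list, with quartiles of 1 and 6.

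**Figure D4:**
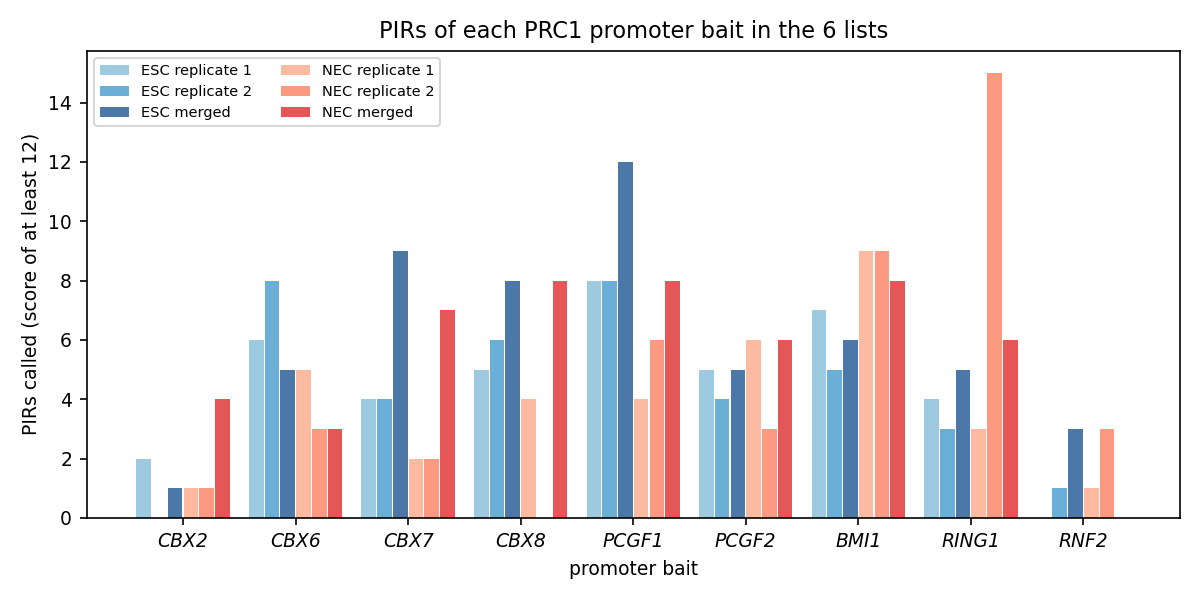
Number of PIRs of each PRC1 promoter bait in the 2 replicate lists and the merged list of each cell type, at a CHiCAGO score of at least 12. PCGF1 leads in ESCs with 12 in the merged list, and BMI1 has 9 in both NEC replicates. RING1 has 15 PIRs in NEC replicate 2 against 3 in NEC replicate 1.

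CBX2 and CBX8 are neighbours on chromosome 17, and 5 of the 8 PIRs of the CBX8 bait in each merged list were the same fragment in both cell types, while either replicate alone had 0 in common. In ESCs its strongest PIR was chr17:77766012-77767797, an exon fragment of CBX8 itself 10.8 kb away, scoring 15.15 and 13.03 in the replicates and 21.59 in the merged list. The fragment chr17:77761703-77766011, over the ends of CBX2 and CBX8, scored 13.53 and 12.37 and 18.78 merged. The fragment that holds the canonical CBX8 start, chr17:77767798-77772910, scored 13.69 in ESC replicate 1 and 18.66 merged. None of these 3 neighbouring fragments was in any NEC list. In NECs the 3 strongest PIRs of the merged list lay 186.5 to 206.5 kb away in the gene TBC1D16, led by chr17:77977400-77991096 with 14.90 in replicate 1 and 16.14 merged. Of those 3 TBC1D16 fragments, only chr17:77964520-77977399 was also in ESC lists, at 14.02 in replicate 2 and 12.95 merged. NEC replicate 2 had no call at all from the CBX8 bait, so the NEC pattern rests on replicate 1 and the merged data. The strongest NEC call of CBX2 was chr17:77720268-77723341, at 15.44 in the merged list and in neither replicate. Of the 8 PIRs of CBX2, no cell type had any in both replicates.

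The CBX6 and CBX7 promoters, 297.9 kb apart on chromosome 22, were joined by a call from the CBX6 bait. It scored 13.65 in ESC replicate 1, 15.33 in ESC replicate 2, 14.87 in the merged ESC list and 12.28 in NEC replicate 1. It was absent from NEC replicate 2 and from the merged NEC list, and no list held it from the CBX7 end. It was the only contact found between the promoters of 2 members. All PIRs of CBX6 were baits. In both ESC replicates and no NEC list, CBX6 also met the bait of NPTXR (16.06 and 13.88, merged 17.67), 22.9 kb away, and its strongest ESC PIR, chr22:39133958-39142254 over SUN2 and GTPBP1 (16.86 and 17.67, merged 20.46). In both NEC replicates and no ESC list, it met the bait of the ribosomal protein gene RPL3, 461.2 kb away, with scores of 27.38 and 17.60 and 25.80 merged, the highest of any member. It also met the bait that holds the start of CTA-150C2.16 (13.43 and 17.15, merged 15.83). Expression of CBX6 did not pass the test between these cell types. CBX7 had most of its PIRs 48.5 to 90.2 kb upstream, over and around the growth factor gene PDGFB, in both cell types. The leading ESC one, chr22:39611005-39626374, scored 13.88 in ESC replicate 1, 15.37 in ESC replicate 2, 12.28 in NEC replicate 1, and 19.86 and 16.43 in the merged ESC and NEC lists. The leading NEC one, chr22:39632514-39634583 in an intron of PDGFB, scored 17.35 in the merged NEC list and 16.09 in the merged ESC list. With 6 of 9 ESC and 6 of 7 NEC calls in common, CBX7 had the largest shared part of the 9 baits in either cell type.

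**Figure D5:**
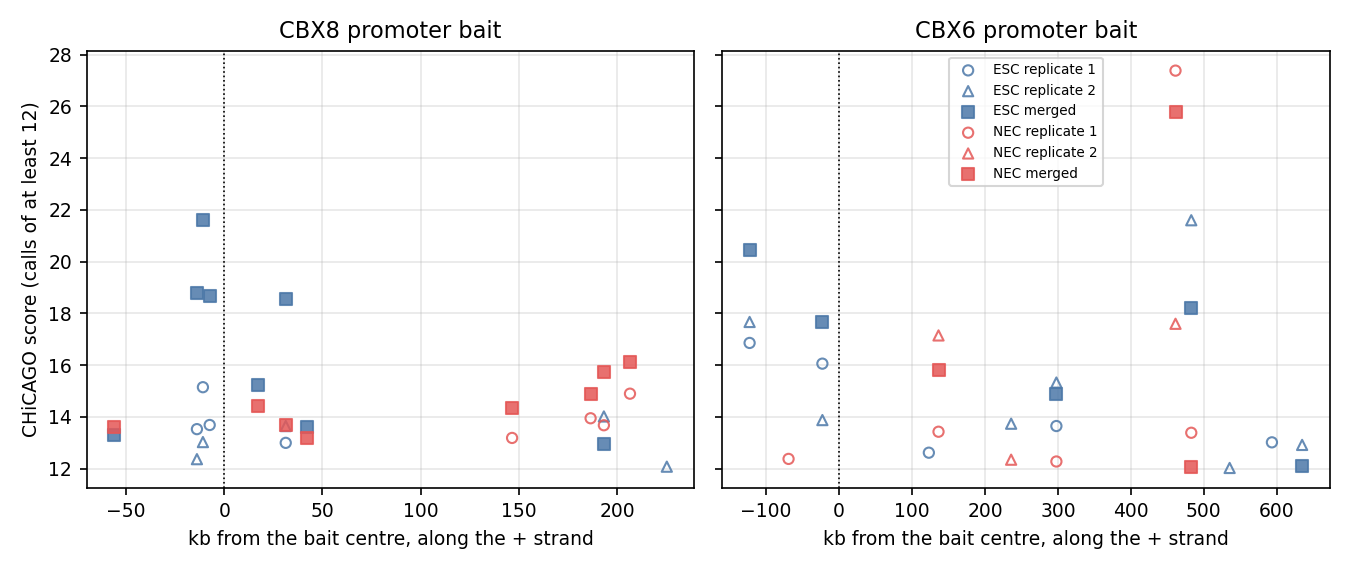
CHiCAGO scores of the PIRs of the CBX8 and CBX6 baits within 700 kb, by distance in kb from the bait centre to the PIR centre along the + strand (blue, ESC; red, NEC; open symbols, replicates; filled squares, merged lists). For CBX8, the ESC calls between 7.4 and 13.9 kb to the left have no NEC counterpart and 3 of the 4 merged NEC calls from 146.5 kb to the right are in no ESC list; for CBX6, the NEC call at 461.2 kb is the highest, at 27.38.

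The PCGF promoters mixed shared and cell-type-restricted calls. PCGF2 reached the bait of CISD3, 15.4 kb away, in both ESC replicates (13.11 and 15.35, merged 18.13) and in no NEC list, although part of CISD3 overlaps PCGF2. The bait of CWC25 was likewise called in both ESC replicates (13.25 and 13.25, merged 16.02) and no NEC list. A fragment of ARHGAP23, 281.1 kb away, was called in both NEC replicates (12.99 and 13.86, merged 14.58) and no ESC list. The bait of PIP4K2B was called in 3 replicates, at 14.14 and 13.56 in ESCs and 13.95 in NEC replicate 1. The highest NEC score was that of the bait of CACNB1 and RPL19, 453.0 kb away, at 18.89 in replicate 1 and 17.28 merged, and it was also called in ESC replicate 2 (13.64) and the merged ESC list (12.44). PCGF2 also met the bait of C17orf96 (EPOP, a PRC2 accessory subunit), 73.1 kb away, at 14.26 in NEC replicate 1 and at 13.15 and 16.63 in the merged ESC and NEC lists. The bait shared by PCGF1 and LBX2 had 21 PIRs, 7.0 to 891.3 kb away. Its strongest PIR in either merged list was the bait of TLX2, a homeobox gene 7.0 kb away, which scored 13.07 and 12.77 in ESC replicates 1 and 2, and 18.16 and 15.13 in the merged ESC and NEC lists. The bait of DOK1, 42.5 kb away, was in both ESC replicates (12.60 and 13.69) and no NEC list. The next fragment, chr2:74777505-74781291 over DOK1 and LOXL3, was called in 3 replicates, at 12.55 and 12.82 in ESCs and 12.47 in NEC replicate 1, and at 14.45 and 13.58 in the merged ESC and NEC lists.

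The bait shared by COMMD3 and the start of the BMI1 record had its PIRs farther away, with a median distance of 318.0 kb in the merged ESC list and 672.2 kb in the merged NEC list. A fragment in an intron of ARMC3, 673.6 kb away (chr10:23277012-23280039), scored 12.18 in ESC replicate 1, then 15.46 and 14.38 in the NEC replicates and 16.93 in the merged NEC list, its highest there. The bait of C10orf114, 819.4 kb away, was called in both NEC replicates (14.52 and 14.14) and in ESC replicate 2 (12.05). The bait of PTF1A, a neural and pancreatic transcription factor gene 881.1 kb away, was called in both ESC replicates (12.09 and 18.23, merged 15.92) and in no NEC list. The highest merged ESC score, 16.76, was that of a fragment in an intron of DNAJC1, 324.6 kb away, which scored 15.80 in ESC replicate 1 and 12.98 in NEC replicate 1.

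Of the ligases, RING1 lies in the gene-dense major histocompatibility region, and all but 1 of its 20 PIRs were baits. Its only PIR called in both replicates of a cell type was the bait of KIFC1, 178.0 kb away, at 12.49 and 15.51 in NECs. That bait was also called in ESC replicate 1 (12.43), and at 13.19 and 16.23 in the merged ESC and NEC lists. Its highest merged ESC score, 14.60, was for the bait of VPS52 and RPS18, 54.6 kb away. Of the 15 PIRs in NEC replicate 2, 11 were in no other replicate. RNF2 had no PIR in the merged NEC list and 3 in the merged ESC list, all at 206.5 to 291.1 kb and none of them in either replicate. The strongest was the bait of EDEM3, at 13.55. Over all 6 lists the scores of the RNF2 bait lay between 12.08 and 13.55, near the threshold of the lists.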

How the data were processed

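The authors trimmed the RNA-seq reads, mapped them to GRCh37 with TopHat (TopHat2 2.0.8b and Bowtie 1.0.0 in the submitters' processing notes) and counted them per Ensembl gene with no use of strand. The deposited values are raw counts. For PCHi-C, the authors scored pairs of HindIII fragments with CHiCAGO for each replicate and for merged replicates. Each deposited score is a negative log of a weighted p-value, and the lists hold scores of at least 12. The Hi-C libraries were not analysed here.

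Counts were tested with edgeR 4.0.16 in R 4.3.3 (TMM, filterByExpr with a minimum count of 10, quasi-likelihood test, Benjamini-Hochberg adjustment over 17564 of 31017 genes). The p-values set the difference between cell types against a spread estimated from 2 libraries of each and moderated over the genes tested. The edgeR steps were also run on simulated counts. Contacts and sequences were read in Python 3.11.15 with pandas 2.3.3. Exon lengths and transcript starts came from GENCODE lifted to GRCh37.

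All 9 members are named. 1 further gene of the naming rule, and the contacts that reach it, are not reported here. Of the other PRC1 and H2A deubiquitinase genes, those past the threshold with the 3 highest and 3 lowest (most negative) log2 fold changes are named. PHC3, BCOR and YAF2 are also named, outside that rule. Of the PIRs, the highest scoring in each merged list and those called in both replicates of a cell type are named, and further ones were chosen after their values were seen. The members and lists were chosen with earlier results of these data known. Alternatives were DESeq2 1.42.0 and its size factors, library size alone, other filters, a replicate block, leaving out each replicate, a score of at least 15, and other choices of bait, length and overlap.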

Additional observations from a re-analysis of the deposited data

How the results depend on the processing

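Across 10 alternatives to the expression test, CBX2, CBX7, CBX8, BMI1, RING1 and RNF2 kept their direction and an adjusted p under 0.05. PCGF2 kept its direction, but its log2 fold change of 0.25 by DESeq2 missed the threshold (adjusted p = 0.10), as did values of 0.22 to 0.26 without ESC replicate 1, ESC replicate 2 or NEC replicate 1 (edgeR adjusted p between 0.0983 and 0.178). Leaving out 1 library gave PCGF2 values between 0.22 and 0.32. The cause was not tested. CBX6, which did not pass in any setting, changed sign to -0.0147 with DESeq2's size factors, to -0.012 by DESeq2, and to -0.0403 and -0.0396 without ESC replicate 1 and NEC replicate 1; leaving out 1 library gave values between -0.0403 and 0.0555. The other PRC1 genes that rose numbered 4 without ESC replicate 2, and between 4 and 6 when any 1 library was left out. Above an absolute log2 fold change of 1, 4 members were called, all of them higher in NECs. Over the 17564 genes tested, 3069 were called higher and 2511 lower by that rule. With the longest transcript as length, 5 of 9 members held their rank in NECs. Replicate numbers are shared by the cell types, but the deviations of same-numbered libraries correlated at 0.0606, which does not show pairing; with the replicate block, 6 members rose, 1 fell and 1 was called, as without it, and over all genes 5631 rose and 5354 fell, against 5529 and 5209.

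For contacts, a score threshold of 15 left 20 ESC and 16 NEC PIRs of the 9 baits, with 4 shared, and dropping PIRs that are baits left 28 and 31, with 14 shared. Each replicate alone gave 41 and 39 ESC and 35 and 42 NEC PIRs, with between 4 and 11 shared. Contacts between promoters of members numbered 1 in the merged ESC list and 0 in the merged NEC list, 0 and 0 with a score threshold of 15, 1 in each ESC replicate, and between 0 and 1 in the NEC replicates. Depth limits CBX8 in ESCs (22 and 12 counts), and the lists give no depth for contacts.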
